A study of Mus musculus with 2 samples.

Results

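Isolated c-Fos peaks are sites of the c-Fos chromatin immunoprecipitation sequencing (ChIP-seq) list that stand alone on their chromosome. They were chosen by position: a peak on chromosomes 1 to 19 counted when the centres of its neighbours on both sides lay more than 300 kb away. The rule was met by 427 of 10785 autosomal peaks (3.96%, Wilson 95% interval 3.61 to 4.34), out of 10870 peaks in the whole list. The cells were mouse bone marrow mesenchymal stem cells, stromal cells with the capacity to form bone, cartilage and fat. They were p53 knockout cells made to express c-Fos, at fewer than 20 passages, and the input library had the same genotype. The ChIP started from 50000000 fixed cells and 10 ug of the anti-c-Fos antibody sc-253, whose specificity these data do not check. There was 1 ChIP library and 1 input library, with no replicate, no cells without added c-Fos and no p53-intact cells among the labels.

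c-Fos is a basic leucine zipper transcription factor that does not bind DNA on its own. It pairs with a Jun protein to form AP-1, which binds short palindromic elements in promoters and, more often, in enhancers far from genes. In bone, excess c-Fos is known for driving osteosarcoma and cartilage-forming tumours in mice, and p53 loss is known for predisposing mesenchymal cells to sarcoma. AP-1 sites often lie several to a regulatory region, together with sites of other factors. A solitary peak is a place where this list shows a single site and then a long way without another in each direction. Only peaks that the authors listed count as neighbours, and the lowest score in their list was 50.01, so a weaker site within 300 kb would not be seen.

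Positions, widths and scores all came from the same peak list that chose the members. They are therefore given as descriptions, with no test. The score is the value the authors deposited for each peak. Its scale is not stated, so it ranks peaks within the list and is not a measure of binding strength. Intervals of medians are 95% order-statistic intervals and intervals of shares are Wilson intervals. They treat peaks as independent and cover the spread within 1 list, not variation between cultures. Sequencing depth is unknown, as read counts were not used here. Positions are in the mm9 build, counted from 1. Genes, promoters and DNA sequence at the isolated peaks were not analysed here, because the gene and sequence tables at hand are on another build.

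The empty stretches around isolated peaks were long and mostly unequal. The nearer neighbour lay a median of 477 kb away, with quartiles of 364 and 673 kb and a maximum of 4492 kb. For the other autosomal peaks the median distance to the nearest neighbour was 25.2 kb. The farther neighbour lay a median of 1109 kb away, and up to 9571 kb. The longer side exceeded the shorter by a median factor of 1.90, and in 13 peaks by a factor of 10 or more. The side of lower coordinates was the longer one in 203 peaks and the other side in 224. Of the 427, 201 (47.1%) had no peak within 500 kb, 58 (13.6%) none within 1000 kb and 15 (3.51%) none within 2000 kb.

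**Figure D1:**
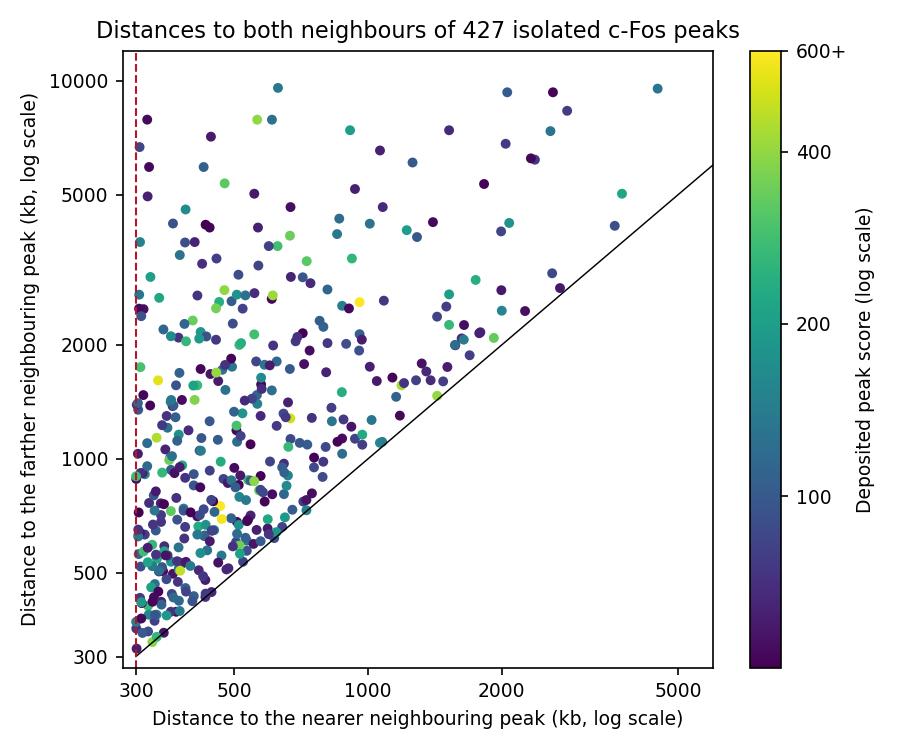
Distance to the nearer (x axis) and farther (y axis) neighbouring peak centre for each of the 427 isolated peaks, in kb on log scales, coloured by deposited score. The dashed line marks the 300 kb limit and the solid line equal distances. Low scores are found over the whole range of distances. Only 15 peaks lay more than 2000 kb from their nearer neighbour, and the highest of them scored 217.6. Of all 427, 14.3% scored at least 200.

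Measured as territory, these few peaks took up a large part of the genome. With each peak given the ground halfway to its neighbours, the isolated peaks held 507 Mb of the 2390 Mb between the first and last peaks of the autosomes. That is 21.2% of the span for 3.96% of the peaks, and it follows from the rule. An isolated peak stood at one end or both ends of 739 of the 1724 stretches over 300 kb without a peak (42.9%). It did so for 247 of the 467 stretches over 1000 kb (52.9%) and 21 of the 31 over 5000 kb (67.7%). Any such stretch already gives the peaks at its ends 1 empty side, so these shares are tied to the rule. The remaining stretches ended at peaks that had a closer companion on their other side or were the first or last of their chromosome. In total 2587 peaks had more than 300 kb on 1 side only.

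The most remote peak of all was chr4:76070644-76071564, with 9.53 Mb to 1 side, 4.49 Mb to the other and only 5 other peaks within 5 Mb. Its score was 133 and its width 921 bp, both unremarkable for the list. Next came chr6:77050880-77051977, 3.73 Mb from its nearer neighbour, with a score of 218. The third, chr12:21375881-21376847, lay 3.60 Mb away and scored 90.6. Both chr15 members of this group scored low: chr15:20572559-20573461 (2.81 Mb to the nearer neighbour) had a score of 78.2, and chr15:47371115-47372026 (2.71 Mb) had a score of 59.1. At chr14:99328431-99329275, 2.61 Mb from the nearer and 9.32 Mb from the farther neighbour, the score was 51.5. The peaks chr2:97274076-97274902 (score 87.2), chr1:23651806-23652748 (score 129) and chr5:58146904-58147729 (score 75.5) lay 2.60, 2.58 and 2.38 Mb from theirs. The tenth was chr7:7251282-7252852, 2.33 Mb away, whose score of 52.4 went with a width of 1571 bp. Of these 10, 7 scored below 100, as did 244 of all 427 isolated peaks (57.1%) and 48.8% of the other autosomal peaks.

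At the limit itself, scores were mixed on both sides. Just inside were chr4:12235217-12236170 at 300.1 kb (score 278), chr19:56662662-56663574 at 300.2 kb (score 145) and chr13:44664347-44665200 at 300.4 kb (score 53.6). Just outside were chr10:111409425-111410379 at 299.9 kb (score 96.7), chr9:103274517-103275461 at 299.5 kb (score 128) and chr12:29216349-29217321 at 299.4 kb (score 74.8).

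Isolated peaks were found on every autosome, from 9 on chromosome 19 to 42 on chromosome 2. As a share of a chromosome's peaks they were most frequent on chromosome 12 (19 of 282, 6.74%, Wilson interval 4.36 to 10.3), chromosome 1 (41 of 613, 6.69%, 4.97 to 8.95) and chromosome 13 (31 of 499, 6.21%, 4.41 to 8.68). They were least frequent on chromosome 11 (14 of 748, 1.87%, 1.12 to 3.12) and chromosome 8 (12 of 630, 1.90%, 1.09 to 3.30). Chromosomes 12 and 1 have few peaks per Mb (2.41 and 3.20) and chromosome 11 has many (6.32), a quantity tied to the spacing rule. Chromosome 8 had a middling 4.93 peaks per Mb but the lowest number of isolated peaks per Mb, 0.0939 against a median of 0.162 over the autosomes. Chromosome 13, with 4.29 peaks per Mb, had the highest, 0.267. The share of the span that belonged to isolated peaks ran from 9.59% on chromosome 11 to 30.4% on chromosome 1.

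**Figure D2:**
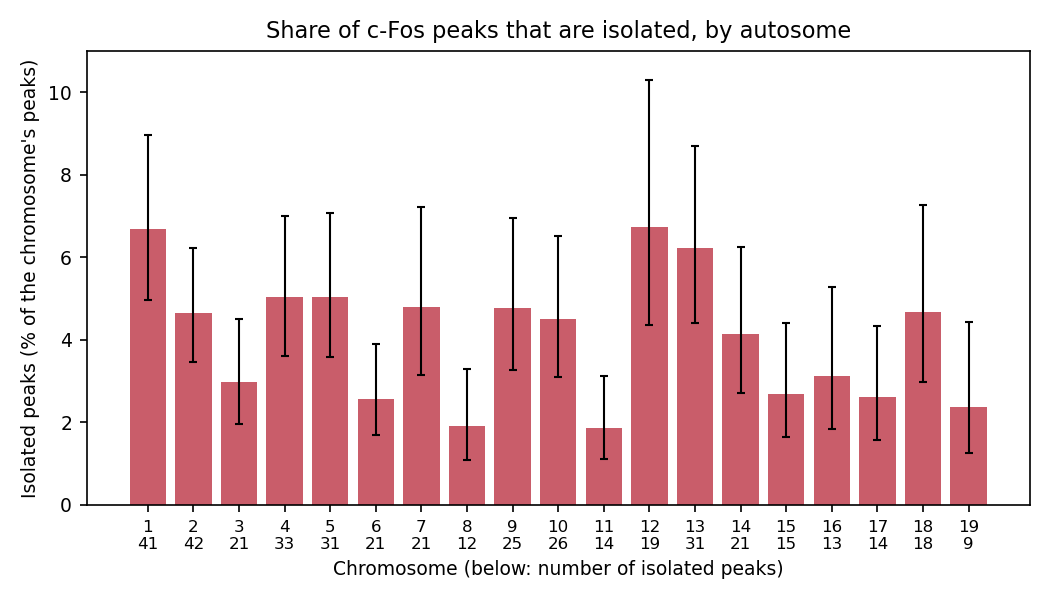
Isolated peaks as a percentage of all c-Fos peaks on each autosome, with Wilson 95% intervals as error bars and the number of isolated peaks under each chromosome. Chromosomes 12, 1 and 13 stand highest, and chromosomes 8 and 11 lowest.

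Along the chromosomes, the first part of the span held a larger share of the isolated peaks than of the others. The first 20% of the distance between the first and last peak held 107 of them (25.1%, Wilson interval 21.2 to 29.4), against 17.8% of the other peaks (17.1 to 18.5). The last 20% held 86 (20.1%, 16.6 to 24.2) against 24.0% (23.1 to 24.8). The first pair of intervals did not overlap and the second did. The parts between, each also 20% of the span, held 20.1%, 16.9% and 17.8% of the isolated peaks in order. For the other peaks these shares were 18.4%, 19.2% and 20.7%. The other peaks were thus sparsest in the first part, so these shares are tied to the spacing rule. Mouse chromosomes carry their centromere at the end where coordinates begin, and a relation to it was not tested.

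Some isolated peaks came one after another. Of the 427, 197 (46.1%) had another isolated peak as a direct neighbour. The rule favours this, since the neighbour of an isolated peak already has 1 empty side. Of the 854 neighbouring places 26.9% held an isolated peak, and isolated peaks made up 24.8% of the 3448 ends of all gaps over 300 kb. They formed 56 pairs, 19 stretches of 3 and 7 stretches of 4 in a row, and no longer ones. The longest stretch of 4 spanned 9.83 Mb from chr7:38104769 to 47933847, with scores of 96.12, 197.80, 67.26 and 197.96 in order. A stretch on chromosome 1 covered 9.03 Mb (112379818 to 121406875) and opened with a score of 397.67, followed by 125.14, 136.08 and 92.17. On chromosome 4, 4 peaks between 20567188 and 25209537 all scored under 100, at 55.73, 62.46, 50.42 and 97.16. The shortest stretch of 4, on chromosome 2 from 18135553 to 19569353, had scores of 73.57, 78.91, 134.62 and 103.82 within 1.43 Mb. The others lay on chromosome 2 (103985911 to 106209625), chromosome 10 (123575360 to 126079739) and chromosome 12 (99521613 to 103665254). These stretches mark wide regions where the list holds only widely spaced c-Fos sites, and their scores ranged from 50.42 to 397.67.

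The wider surroundings of isolated peaks were sparser than those of other peaks, though mostly not empty, and the rule itself fixes part of this by emptying 300 kb on each side. Within 1 Mb, 58 isolated peaks had no other peak. On that scale the 427 had a median of 4 other peaks (quartiles 2 and 8) and the others 14 (10 and 20). Within 5 Mb the medians were 38 (25.5 to 50.5) and 55 (40 to 72), so the quartile ranges overlapped at that scale. One isolated peak, chr6:93241476-93242470 (score 164), had 103 peaks within 5 Mb. The lowest count was 4, shared by 5 isolated peaks. In 2 of these, chr8:4251800-4252783 (score 87.8) and its neighbour chr8:4677894-4679126 (score 106.6), the 5 Mb window ran past the first peak of the chromosome. In the others, chr1:101997448-101998245 (score 51.1), chr14:87097459-87098439 (score 59.98) and chr14:90010325-90011201 (score 102.8), it did not. These peaks were picked by their counts. Isolated peaks were thus found both where the list is poor and where it is rich over several Mb.

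The scores of isolated peaks were lower in the middle and upper part of their range. Their median score was 89.7 (82.9 to 97.7), against 102 (100.3 to 103.9) for the other 10358 autosomal peaks. The lower quartiles were close, 65.1 and 68.7, while the upper quartiles were 136 and 169 and the 90th percentiles were 246 and 278. Of the isolated peaks, 183 (42.9%, Wilson interval 38.2 to 47.6) scored at least 100, against 51.2% (50.2 to 52.2) of the others. For scores of at least 200 the shares were 14.3% (11.3 to 17.9) and 18.9% (18.1 to 19.6). These intervals did not overlap. For scores of at least 500 they did: 4 isolated peaks (0.937%, 0.365 to 2.38) against 224 others (2.16%, 1.90 to 2.46). Among the 100 autosomal peaks of highest score 1 was isolated, and among the top 1000 there were 28 (2.80%). Isolated peaks made up 3.96% of all autosomal peaks. No intervals were computed for these top counts, so a difference from that share was not shown.

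Median scores tended to be lower at longer distances, though not from each class to the next, and without a step at 300 kb. From 50 kb outward the intervals of all classes overlapped one another. Peaks with a neighbour within 10 kb had a median score of 109 (104.7 to 113.0), and those with the nearest at 10 to 50 kb 102 (99.4 to 105.5). The medians were 97.2 (92.6 to 100.4) at 50 to 100 kb, 97.4 (94.1 to 102.3) at 100 to 200 kb and 95.4 (87.8 to 106.0) at 200 to 300 kb. Isolated peaks with the nearer neighbour at 300 to 400 kb had 94.1 (78.3 to 107.1), and those at 400 to 500 kb 96.1 (79.4 to 106.6). At 500 to 1000 kb the median was 87.9 (82.1 to 102.3), and beyond 1000 kb, in 58 peaks, it was 78.9 (68.2 to 98.2). All 4 intervals of the isolated classes overlapped that of the 200 to 300 kb class. Within the isolated peaks the score hardly followed the distance to the nearer neighbour (Spearman's rho -0.03, Pearson's r -0.02 over 427 peaks of 1 library, as a description). Peaks with more than 300 kb on 1 side only had a median of 96.6 (93.7 to 99.6).

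**Figure D3:**
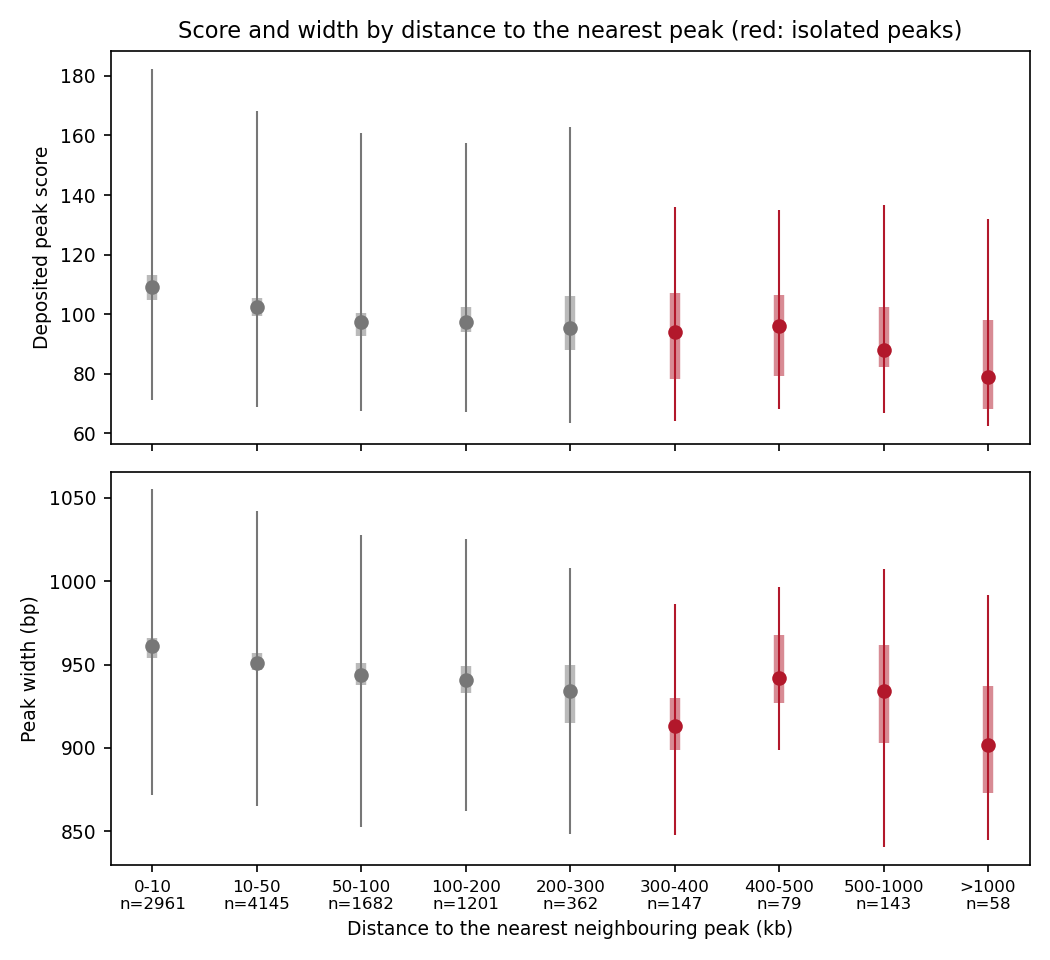
Deposited score (top) and width in bp (bottom) of autosomal peaks by distance to the nearest neighbouring peak in kb. Points are medians, thick bars their 95% order-statistic intervals and thin lines the quartiles, with isolated peaks in red; median scores go from 109 in the closest class to 78.9 in the most distant one.

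The number of peaks within 5 Mb made little difference to the median score of isolated peaks. The third with at most 30 peaks within 5 Mb had a median score of 90.7 (81.8 to 103.8), the third with up to 45 had 92.8 (76.5 to 106.5) and the third with more had 87.1 (80.9 to 99.9). The other peaks in the same surroundings had medians of 101 (97.1 to 106.8), 100.04 (96.3 to 103.9) and 103 (100.8 to 105.2). Isolated peaks thus had the lower median in each of the 3 kinds of surroundings, with intervals that overlapped in the first 2 and did not in the third.

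Each isolated peak was also set beside its own neighbours. Isolated peaks scored above both neighbours in 119 cases (27.9%, Wilson interval 23.8 to 32.3) and below both in 148 (34.7%, 30.3 to 39.3). Among other autosomal peaks with 2 neighbours the shares were 33.2% (32.3 to 34.2) above both and 33.0% (32.1 to 33.9) below both. The intervals for scoring above both lay next to each other without overlap (upper bound 32.304% for isolated, lower bound 32.344% for other peaks), and those for scoring below both overlapped. Adjacent peaks cannot both score above both neighbours, so these cases are not independent. So narrow a gap between the intervals therefore does not show a difference. The neighbours of isolated peaks that were not isolated themselves numbered 624 and had a median score of 98.6 (91.7 to 105.7).

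The sign of the score difference was not the same on all chromosomes. No intervals were computed for these medians, which rested on 9 to 42 isolated peaks each, so a difference between chromosomes was not shown. The median of the isolated peaks was below that of the other peaks on 11 of the 19 autosomes and above it on 8. The greatest shortfalls were on chromosome 4 (67.0 for 33 isolated peaks against 97.1), chromosome 15 (72.5 for 15 against 101.7) and chromosome 3 (79.4 for 21 against 104.9). On chromosome 7 the order was turned, with 120.3 for 21 isolated peaks against 96.8, and on chromosome 11 too, with 126 for 14 against 103.9. The median of the 19 differences was -3.44, compared with -12.5 when all peaks were pooled. Of the isolated peaks, 245 (57.4%, 52.6 to 62.0) scored below the median of the other peaks on their own chromosome. When each autosome was left out in turn, the pooled difference lay between -13.8 and -9.67, with the smallest difference without chromosome 4.

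**Figure D4:**
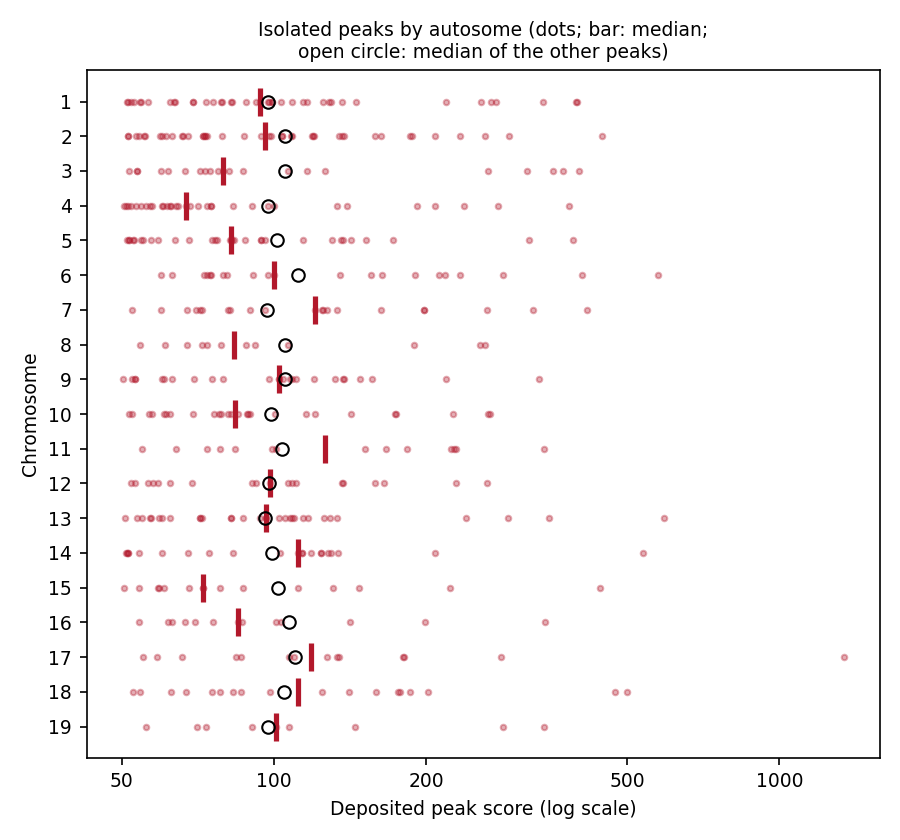
Deposited score (log scale) of every isolated peak by autosome, with a red bar at their median and an open circle at the median of the chromosome's other peaks. The red bar lies left of the circle on 11 autosomes, most on chromosome 4, and right of it on 8, such as chromosomes 7 and 11.

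A few isolated peaks ranked high. The highest was chr17:39979582-39986286, with a score of 1340, second among all autosomal peaks. At 6705 bp no peak in the list was wider, and whether it lies on repeated or multicopy sequence was not tested. Of the next, chr13:17602753-17604077 scored 592, chr6:41497938-41499009 576 and chr14:71503463-71504651 537, at ranks 117, 124 and 181 of the autosomal list. No other isolated peak reached 500. Chromosome 18 held the following pair, chr18:22050890-22052352 with 498.9 and chr18:69706690-69708085 with 472. After these came chr2:78221085-78222157 (446), chr15:87484483-87485805 (441), chr7:113379546-113380759 (417) and chr6:141357075-141358165 (406). The peak at chr3:34232113-34233167 scored 401 with its neighbours almost evenly placed, 1.43 and 1.47 Mb away. On chromosome 1, chr1:112379818-112380801 (398) stood beside an empty stretch of 7.89 Mb, and chr1:84877872-84878989 scored 396. The last 2 of the 15 highest were chr5:33273069-33274182 (391) and chr4:93219208-93220307 (384). These 15 lay on 12 chromosomes. Apart from the first, their widths ran from 984 to 1463 bp.

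On the chromosomes not yet named, the highest isolated peaks were chr16:42586011-42587119 (score 343), chr19:19321013-19322227 (343), chr11:51077645-51078774 (342) and chr9:11328662-11329660 (334). Lower still were the highest of chromosome 10, chr10:33277672-33278729 (267), of chromosome 12, chr12:43050476-43051526 (263), and of chromosome 8, chr8:116573942-116575165 (262). The last of these scored above 87.1% of the peaks of its chromosome.

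At the low end, chr9:7572666-7573321 scored 50.19, the lowest value of any peak on chromosome 9. It was followed by chr4:24496189-24496991 (50.42), chr15:35808065-35808989 (50.47), chr13:14705131-14705931 (50.69) and chr4:94269566-94270290 (50.85). In all, 79 isolated peaks (18.5%, Wilson interval 15.1 to 22.5) scored under 60, against 15.4% (14.8 to 16.2) of the other autosomal peaks, with overlapping intervals. With a list that starts at 50.01, such peaks are the ones whose listing depends most on the threshold.

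Isolated peaks were slightly narrower than the others over the whole list, but not shown to be so at like scores. Their median width was 925 bp (913 to 937), against 951 bp (947 to 954), and these intervals did not overlap. Peaks with the nearest neighbour at 200 to 300 kb had a median width of 934 bp (915 to 950). For peaks with more than 300 kb on 1 side only it was 939 bp (933 to 944). Both of these intervals overlapped that of the isolated peaks. On 16 of the 19 autosomes the isolated peaks had the lower median width. Wider peaks had higher scores in both sets, with a Spearman's rho of 0.66 over the 427 isolated and 0.70 over the 10358 other peaks. Within 5 equal score groups of the autosomal list, the median widths were close in the lowest, second and highest groups. In the lowest group the medians were 848 bp (824 to 872) for isolated and 837 bp (833 to 843) for other peaks, and in the second 900 (869 to 918) and 902 bp (897 to 907). In the third they were 931 (910 to 958) and 957 bp (951 to 961), in the fourth 986 (962 to 1009) and 1009 bp (1005 to 1014), and in the highest 1099 (1055 to 1119) and 1102 bp (1097 to 1107). The intervals overlapped in all 5 groups. The lowest group held 24.4% of the isolated peaks and the highest 14.99%.

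**Figure D5:**
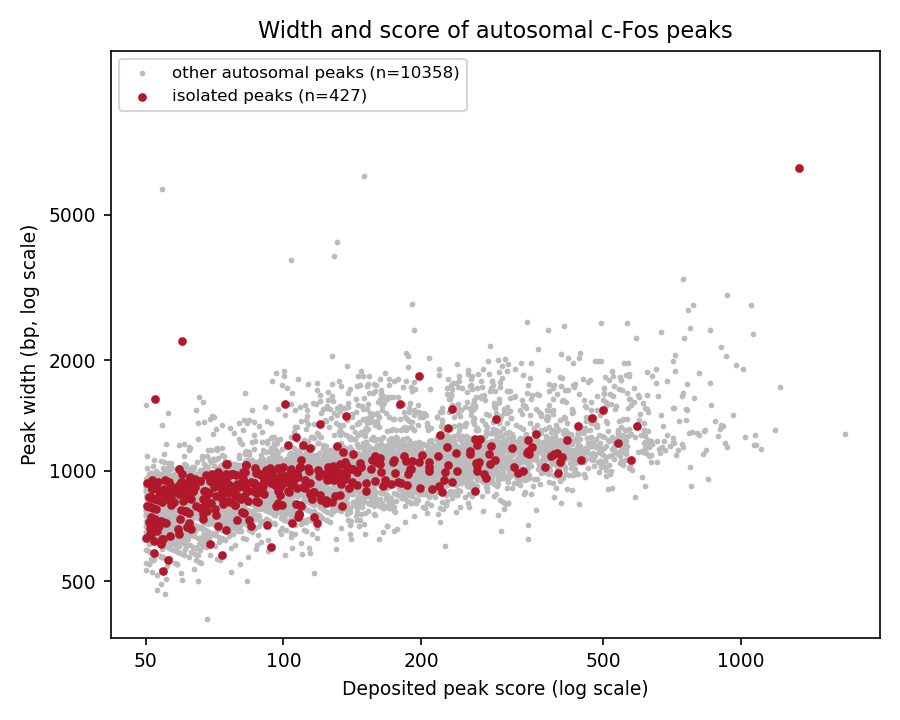
Peak width in bp against deposited score, both on log scales, for isolated (red) and other autosomal (grey) peaks. The isolated peaks lie within the cloud of the others, apart from the peak at 6705 bp with a score of 1340 and a few low-scoring wide ones such as that of 2253 bp with a score of 59.9.

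Some of the widest isolated peaks had low scores. After the peak on chromosome 17, the widest was chr4:146678797-146681049, 2253 bp with a score of 59.9. Then came chr7:39015120-39016930 (1811 bp, score 198), chr7:7251282-7252852 (1571 bp, score 52.4) and chr17:59215568-59217092 (1525 bp, score 180). The last 3 all stood beside stretches of more than 4 Mb without a peak, of 7.39, 6.23 and 4.20 Mb. For the widest peak, on chromosome 17, and for chr4:146678797-146681049 the longer side was 2.60 and 1.77 Mb. Over the 427 isolated peaks the width hardly followed the distance to the farther neighbour (Spearman's rho 0.02, Pearson's r 0.07, as a description). Widths of 1312 bp or more were found in 14 isolated peaks (3.28%, Wilson interval 1.96 to 5.43) and in 5.03% of the others (4.63 to 5.47), with overlapping intervals. The narrowest isolated peaks were chr4:123594459-123594992 (534 bp, score 54.5), chr19:14695019-14695590 (572 bp, score 55.9) and chr19:34901938-34902525 (588 bp, score 73.5). They were followed by chr4:108146088-108146682 (595 bp, score 52.1) and chr5:17061834-17062451 (618 bp, score 94.1).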

How the data were processed

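One c-Fos ChIP library and 1 input library were grouped by the antibody in the labels, and only the ChIP peak list was used. The deposited file gives chromosome, start, end, name and the authors' score for each peak, with no header. Per the submitters' processing notes, mm9, MACS 1.4.1 and CASAVA 1.8.2 were involved, with no role stated. Aligner, filters, threshold and control: not given in the sources used here. Starts and ends (other deposited values) were taken as BED positions, and 1 was added to each start.

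Peaks on chromosomes 1 to 19 were sorted by centre and kept when both neighbouring centres lay more than 300000 bp away. The first and last peaks of each chromosome (38) were left out. The members, lists and comparisons were chosen with earlier results of these data known. Peaks were named by fixed rules: the 15 highest scores, 5 lowest scores, 5 widest, 5 narrowest, 10 most remote, the highest score of each autosome, and 3 on each side of the limit. The stretches of 4, and the peaks with the most and fewest peaks around them, were chosen after their values were seen. No test was made, since spacing, score and width come from 1 peak call. The rule was tested on simulated positions, and the order-statistic interval on simulated independent normal values. The Wilson intervals were not tested in this way. Sequence and gene comparisons were not run, as 0 of the tables at hand are on mm9. Alternatives were limits of 200 and 500 kb, distances between edges, only peaks scoring at least 100, end peaks kept, the widest 5% (1312 bp or more) left out and, added after the data were seen, each autosome or the 2 members over 2 kb left out. Tables were handled with pandas 2.3.3 and numpy 2.4.6 in Python 3.11.15, intervals came from scipy 1.17.1, and plots from matplotlib 3.10.9.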

Additional observations from a re-analysis of the deposited data

How the results depend on the processing

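Of 58 recomputed values, 54 stayed within the interval of the reported value or within 1.5 times a count, and 4 moved. The number of isolated peaks was 785 at 200 kb and 201 at 500 kb, as the rule itself dictates. When only peaks scoring at least 100 were kept before neighbours were sought, the median score of the isolated peaks was 157 (167.6 for the others) and their median width 1009 bp (1030 bp), both raised by the filter itself. That step gave 638 isolated peaks. This count is among the 54 because it lay within 1.5 times 427, although only 182 of the 638 were in the main set. Of the 427, only 183 scored at least 100, and 182 of these were still isolated. That was fixed in advance, since taking peaks away can only lengthen the distances between those left. Only a peak that became the first or last of its chromosome could drop out. The median score of isolated peaks was below that of the others in all 25 settings tried, and so was the median width in 25 of 25. These settings share most of their peaks, so they do not measure stability. No paired analysis was possible because there is only 1 ChIP sample. Depth is unknown, so the number of sites below the lowest listed score cannot be estimated, and such sites would end the isolation of some peaks.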

Other observations

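Chromosome X lay outside the rule and was in no comparison above. By the same spacing, 24 of its 65 peaks (36.9%, Wilson interval 26.2 to 49.1) were isolated, on a chromosome with few peaks in all. Their median score was 65.7 (order-statistic interval 55.7 to 102), the highest was 188, and their median width was 864.5 bp. The nearer neighbour lay a median of 709 kb away.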
